A study of Homo sapiens with 8 samples.

Results

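The BCL2 family decides whether a cell commits to mitochondrial apoptosis, and 10 of its genes were followed here by symbol: BCL2, BCL2L1, MCL1, BAX, BAK1, BCL2L11, BBC3, PMAIP1, BID and BAD. Each symbol matched 1 row of the 58735 genes in the count table, and all 10 passed the filter on low counts, which left 14621 genes for testing. The members were given by name, with no threshold on their values, but with earlier results of these data known. RNA-seq read counts came from 8 libraries of stably transduced cells labelled A549, a human lung adenocarcinoma line. In the EV group (n = 4) the cells carried an empty lentiviral vector, and in the KRT19 group (n = 4) they carried a lentivirus encoding Flag-tagged keratin 19, an intermediate filament protein of epithelia. Both groups had been selected with puromycin, and whether they were pools or single clones was not given in the sources used here. Whether the 4 libraries of a group came from separate transductions, cultures or RNA preparations was not stated either, so the p-values measure the spread between these libraries, which may be technical.

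The family falls into classes by role. The guardians MCL1, BCL2L1 (which encodes BCL-xL) and BCL2 hold the effectors in check, while the effectors BAX and BAK1 open pores in the outer mitochondrial membrane and release cytochrome c. The BH3-only proteins BCL2L11 (BIM), BBC3 (PUMA), PMAIP1 (NOXA), BID and BAD bind the guardians, and some of them also activate the effectors. BAX, BBC3 and PMAIP1 are textbook targets of p53, and senescent cells are known to lean on guardians, BCL-xL above all, for survival. The study followed senescence in A549 cells with added KRT19 under hydrogen peroxide and in PC-9 lung cancer cells with KRT19 knocked down. It examined p53 and its binding to the promoter of CDKN1A, the gene of p21, in those PC-9 cells. This gave the question asked here: whether transcripts of the family differed between EV and KRT19 libraries.

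Total counts ranged from 14073065 to 17054364 per library. The median absolute difference of a gene from the mean of the other libraries of its group was largest in KRT19 replicate 3 (0.152 on the log2 scale) and 0.0786 to 0.1203 in the other libraries. KRT19 itself had 1 to 5 counts in EV and 4353 to 5147 in KRT19 libraries, so no library went against its group label. The cell line was checked against genes known for A549. KRT8, KRT18 and NQO1 were abundant, at 189 CPM (counts scaled to a common library size with TMM factors) or more in every library. AKR1B10, AKR1C1, AKR1C2, AKR1C3 and ALDH1A1, which this line is known to express strongly, were at 2.75 CPM or less in all 8. CDKN2A, CDKN2B and MTAP lie in a region of chromosome 9 that A549 is known to have lost, yet they were counted at 94.0 to 108, 33.1 to 38.8 and 41.7 to 50.9 CPM. KRT8, KRT18 and NQO1 went with the label, while the AKR1 genes, ALDH1A1, CDKN2A, CDKN2B and MTAP went against it. The cells are therefore called here cells labelled A549, and the cause of the mismatch was not tested. The summed level of 6 leukocyte markers was at most 0.723 CPM (CD3E at 0 in all libraries), that of 6 fibroblast markers 2.05 to 3.80, that of 5 endothelial markers 2.40 to 3.26 and that of 6 retina markers, a tissue the extraction label names, at most 1.75, with RCVRN at 0.

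None of the 10 members passed a test for a difference between the groups. No member had an adjusted p under 0.05 (edgeR, Benjamini-Hochberg over all genes tested), against a background of 0.00684% of the tested genes, which is KRT19 alone. No member reached an unadjusted p under 0.05 either, where 5.41% of all tested genes did. In no member did the EV and KRT19 libraries stand apart without overlap, which 3.44% of all tested genes did. The log2 fold change (KRT19 minus EV) was above 0 for 3 members and below 0 for 7, with a median of -0.028, and the median over all tested genes was 0.0051. Its range over the members was -0.11 to 0.059. The 95% intervals of the 10 differences lay between -0.34 and 0.22 on the log2 scale, so the widest limits were 20.8% lower and 16.5% higher transcript levels. In bulk RNA fewer cells with a transcript and less of it per cell cannot be told apart.

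**Figure D1:**
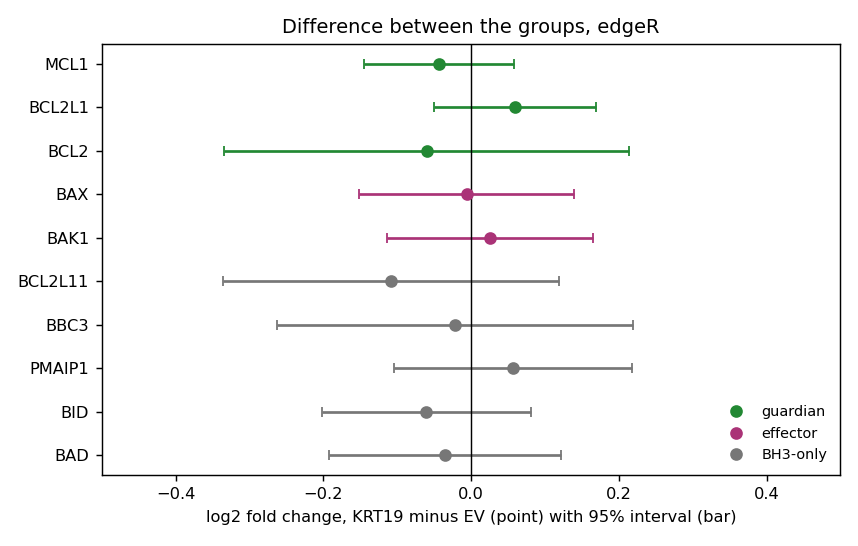
Log2 fold change of each BCL2 family member between KRT19 and EV libraries (horizontal axis, KRT19 minus EV), with points for the edgeR estimate, bars for its 95% interval and colours for the role. All 10 intervals cross 0, and they are widest for BCL2, BBC3 and BCL2L11, the members with the fewest counts.

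Levels of different genes were compared per length, as RPKM (CPM per kilobase of the exons of a gene). MCL1, a short-lived guardian, led the family at 109 ± 5.42 RPKM in EV and 106 ± 3.46 RPKM in KRT19 libraries (SD, n = 4 each), which placed it above 97.6% of the tested genes. BCL2L1 followed at 45.5 ± 1.80 and 47.4 ± 2.41 RPKM, above 93.4% of the tested genes. BCL2, the founding member, was the lowest of the 10 at 0.801 ± 0.133 and 0.765 ± 0.106 RPKM, above 17.6% of the tested genes. The ratio of MCL1 to BCL2 within a library was 119 to 164 and that of BCL2L1 to BCL2 was 45.4 to 74.3. Of the RPKM summed over the guardians, MCL1 made up 70.2% ± 1.79 in EV and 68.7% ± 1.18 in KRT19, BCL2L1 29.3% ± 1.87 and 30.8% ± 1.21, and BCL2 0.514% ± 0.0732 and 0.496% ± 0.0659 (SD, n = 4 each).

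The effectors were close to each other. BAK1 was at 23.5 ± 1.45 RPKM in EV and 23.9 ± 1.74 in KRT19 libraries, and BAX at 21.7 ± 1.84 and 21.6 ± 1.49 (SD, n = 4 each). Among the BH3-only genes, PMAIP1 (15.5 ± 1.62 and 16.04 ± 1.07 RPKM) and BAD (14.9 ± 0.888 and 14.6 ± 1.18) were the most abundant, ahead of BID (7.70 ± 0.451 and 7.38 ± 0.467). BBC3 was at 2.71 ± 0.167 and 2.68 ± 0.385 RPKM, and BCL2L11 at 1.24 ± 0.0738 and 1.14 ± 0.112. The ranges over all 8 libraries overlapped for 2 neighbours in this order, BAK1 with BAX and PMAIP1 with BAD, and for no other pair of neighbours. With the length of the longest coding transcript in place of all exons, BAX (41.3 RPKM) came before BAK1 (23.7 RPKM) and BAD (21.7 RPKM) before PMAIP1 (18.1 RPKM), so the order within these pairs rests on the length used. The other 6 members kept their place, but that length raised BID to 13.4 RPKM, BBC3 to 4.67 RPKM and BCL2 to 1.23 RPKM, so levels and ratios between members also rest on it. Summed over a class, RPKM was 155 ± 3.81 in EV and 154 ± 4.53 in KRT19 for the guardians, 45.1 ± 2.79 and 45.5 ± 3.11 for the effectors, and 42.0 ± 0.815 and 41.8 ± 1.17 for the BH3-only genes (SD, n = 4 each).

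**Figure D2:**
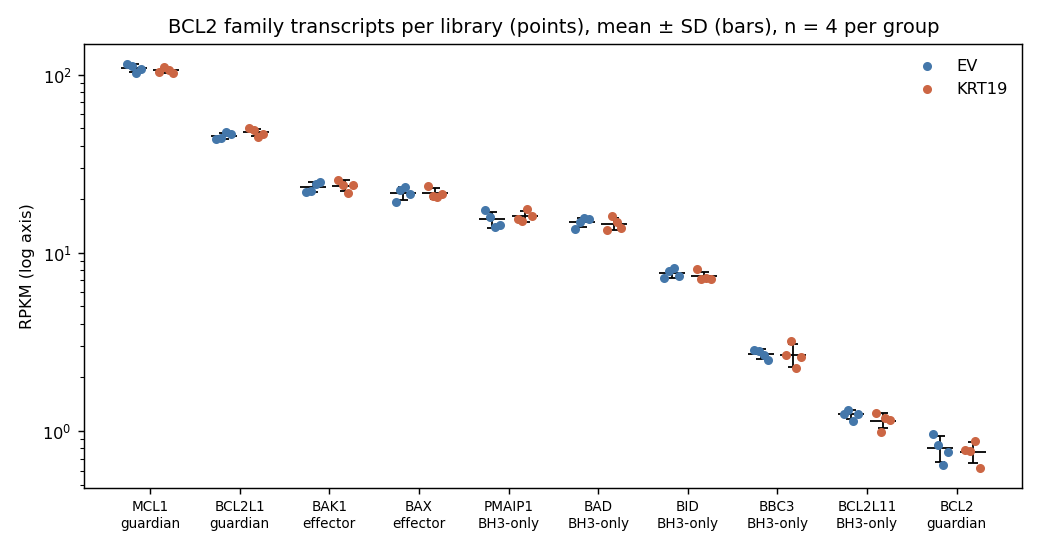
RPKM of each member in every library on a log axis, ordered by mean level, with blue points for EV, red points for KRT19 and black bars for the mean ± SD (n = 4). Members differed from 107 RPKM for MCL1 to 0.783 RPKM for BCL2 as means of all 8 libraries, while the points of both groups overlapped for every member.

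The guardians were then read library by library. MCL1 (ENSG00000143384, minus strand of chromosome 1, 150574551 to 150579738, GRCh38) was at 501, 489, 447 and 470.1 CPM in EV replicates 1 to 4 and at 456, 482, 466 and 447 CPM in KRT19 replicates 1 to 4. EV replicates 1 and 2 were the highest, while EV replicate 3 and KRT19 replicate 4 were at the bottom together. The log2 fold change was -0.043 ± 0.048 (SE), with a 95% interval of -0.14 to 0.058 (edgeR, adjusted p = 0.939). BCL2L1 (ENSG00000171552, minus strand of chromosome 20, 31664452 to 31723989) was at 144.5, 147, 157 and 154.5 CPM in EV and at 166, 161, 148 and 153 CPM in KRT19 libraries. KRT19 replicates 1 and 2 exceeded every EV library, but the others lay within the EV range. Its log2 fold change of 0.059 ± 0.052 (SE) had an interval of -0.051 to 0.17 (adjusted p = 0.922), and it was the member ranked first by p, at position 4310 of all genes tested. BCL2 (ENSG00000171791, minus strand of chromosome 18, 63123346 to 63320128) had 111 to 177 counts, with 11.3, 9.87, 7.59 and 8.93 CPM in EV and 9.22, 9.09, 10.35 and 7.33 CPM in KRT19 libraries. The highest and the lowest EV library enclosed 3 of the 4 KRT19 libraries, and its log2 fold change was -0.060 ± 0.13 (SE, interval -0.33 to 0.21, adjusted p = 0.966). The direction of BCL2 turned to 0.036 without EV replicate 1 and to 0.025 without KRT19 replicate 4. The coefficient of variation of BCL2 was 16.6% in EV and 13.8% in KRT19 libraries, where counting error alone gives 8.23%.

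Among the effectors, BAX (ENSG00000087088, plus strand of chromosome 19, 48954815 to 48961798) was at 49.9, 58.4, 60.9 and 55.3 CPM in EV and at 61.5, 53.7, 52.97 and 55.6 CPM in KRT19 libraries. The lowest value was in EV replicate 1 and the highest in KRT19 replicate 1, with 6 libraries between them. The log2 fold change was -0.0061 ± 0.069 (SE), the closest to 0 of all members (interval -0.15 to 0.14, edgeR, adjusted p = 0.993), and its sign turned under 7 of the 17 alternative fits. These include the fits that leave out EV replicate 2 (0.012), EV replicate 3 (0.035), KRT19 replicate 2 (0.013) or KRT19 replicate 3 (0.020). BAK1 (ENSG00000030110, minus strand of chromosome 6, 33572547 to 33580293) was at 48.8, 49.5, 53.8 and 55.3 CPM in EV and at 57.1, 53.3, 47.7 and 53.2 CPM in KRT19 libraries. KRT19 libraries held both the highest and the lowest BAK1 value, and the log2 fold change was 0.025 ± 0.066 (SE, interval -0.11 to 0.16, adjusted p = 0.973). It turned to -0.0018 without EV replicate 1 and to -0.015 without KRT19 replicate 1.

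The BH3-only genes that p53 is known to induce overlapped between the groups and did not pass the test. Whether p53 was active in these cells was not tested. PMAIP1 (ENSG00000141682, plus strand of chromosome 18, 59899948 to 59904306) encodes NOXA, which binds MCL1. It was at 39.1, 35.6, 31.2 and 32.2 CPM in EV and at 34.5, 33.9, 39.2 and 35.8 CPM in KRT19 libraries. EV replicate 1 and KRT19 replicate 3 were the highest and nearly equal, and the log2 fold change was 0.057 ± 0.077 (SE, interval -0.10 to 0.22, edgeR, adjusted p = 0.954). Leaving out KRT19 replicate 3 gave 0.010 for PMAIP1, and leaving out EV replicate 1 gave 0.12. BBC3 (ENSG00000105327, minus strand of chromosome 19, 47220822 to 47232766) had 123 to 149 counts, with 9.10, 8.965, 8.505 and 7.93 CPM in EV and 8.50, 10.15, 7.19 and 8.26 CPM in KRT19 libraries. KRT19 replicates 2 and 3 held the highest and the lowest value, and the coefficient of variation was 14.4% in KRT19 against 6.14% in EV libraries, with 8.56% from counting error alone. The BBC3 log2 fold change was -0.021 ± 0.11 (SE, interval -0.26 to 0.22, adjusted p = 0.984). It turned to 0.054 without KRT19 replicate 3 and to 0.0048 without EV replicate 1.

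The sequence next to the starts of these p53 targets is shown because the study followed p53-driven transcription, in PC-9 cells with KRT19 knocked down. The stretches are RefSeq sequence of GRCh38.p14, 5′ to 3′ on the strand of the gene, from 250 to 101 bases before the RefSeq start. For BAX this is chr19:48954625-48954774 on the plus strand, for PMAIP1 chr18:59899746-59899895 on the plus strand and for BBC3 chr19:47232768-47232917 on the minus strand, all outside the gene as annotated in the count table. Capitals mark the E-box CACGTG, the GC box GGGCGG and the CCAAT box, searched on both strands, with no overlap among them here.
BAX: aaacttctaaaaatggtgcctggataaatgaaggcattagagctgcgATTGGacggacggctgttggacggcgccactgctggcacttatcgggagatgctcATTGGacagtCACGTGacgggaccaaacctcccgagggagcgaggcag
PMAIP1: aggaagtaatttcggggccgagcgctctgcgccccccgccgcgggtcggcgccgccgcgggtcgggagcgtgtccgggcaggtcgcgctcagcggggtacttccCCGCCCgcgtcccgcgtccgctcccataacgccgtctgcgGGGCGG
BBC3: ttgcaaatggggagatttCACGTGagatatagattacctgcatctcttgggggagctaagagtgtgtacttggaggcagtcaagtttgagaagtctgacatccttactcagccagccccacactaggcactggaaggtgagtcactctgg

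The BAX stretch held 1 E-box and 2 CCAAT boxes, the PMAIP1 stretch 2 GC boxes and the BBC3 stretch 1 E-box. Over the same 150 bases of all 35116 promoters in the RefSeq table, 2.98% held an E-box, 25.8% a GC box and 18.9% a CCAAT box. The consensus p53 response element was in none of these 3 stretches and in 5 of all promoters. The p53 half-site, a part of that element, was in none of these stretches and in 3.48% of all promoters. These letters say nothing about p53 elsewhere in the genes. The G and C content was 55.3% for BAX, 77.3% for PMAIP1 and 49.3% for BBC3, with 10, 28 and 1 CpG. Promoter entries matched 9 of the 10 members (not MCL1).

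The remaining BH3-only genes link apoptosis to other signals. BID (ENSG00000015475, minus strand of chromosome 22, 17734138 to 17774770) is cleaved by caspase-8 and carries death receptor signals to mitochondria. It was at 32.2, 34.96, 36.7 and 33.1 CPM in EV and at 35.9, 31.7, 32.0 and 31.65 CPM in KRT19 libraries. Of the KRT19 libraries, 3 were below every EV library and KRT19 replicate 1 was within the EV range, with a log2 fold change of -0.061 ± 0.067 (SE, interval -0.20 to 0.081, edgeR, adjusted p = 0.939). Without KRT19 replicate 1 the groups of BID did not overlap, as for 7.84% of all tested genes, and its log2 fold change was -0.11 (unadjusted p = 0.137). BAD (ENSG00000002330, minus strand of chromosome 11, 64269830 to 64284704) is a sensor of growth factor signalling and is held inactive by phosphorylation. It was at 23.3, 25.4, 26.7 and 26.3 CPM in EV and at 23.0, 27.5, 25.4 and 23.65 CPM in KRT19 libraries. KRT19 replicates 1 and 2 held the lowest and the highest value, and the log2 fold change was -0.035 ± 0.074 (SE, interval -0.19 to 0.12, adjusted p = 0.966). Leaving out KRT19 replicate 1 gave 0.0011 for BAD.

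BCL2L11 (ENSG00000153094, plus strand of chromosome 2, 111119378 to 111168447) encodes BIM, a potent activator of the effectors, and had 93 to 146 counts. It was at 8.24, 8.78, 7.59 and 8.34 CPM in EV and at 8.38, 6.603, 7.835 and 7.66 CPM in KRT19 libraries. KRT19 replicate 2 alone was below the EV range, and the log2 fold change of -0.11 ± 0.11 (SE, interval -0.34 to 0.12, edgeR, adjusted p = 0.929) was the largest in size of the 10 members in this fit, but not in several alternatives, such as limma-voom, where BCL2 was at -0.16 and BCL2L11 at -0.14. Leaving out KRT19 replicate 2 gave -0.049 for BCL2L11. The coefficient of variation of BCL2L11 was 5.96% in EV and 9.75% in KRT19 libraries, near the 8.86% that counting error gives.

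Because a ratio within a library does not depend on its size, 4 pairs with known opposition or binding were also compared, as the difference of log2 CPM, a quantity for comparing libraries and not levels of different genes. BAX to BCL2, the pair often quoted as a balance of death and survival, was at 2.13, 2.55, 2.98 and 2.62 in EV and at 2.72, 2.55, 2.34 and 2.90 in KRT19 libraries. The extreme values were both in the EV group, and the means differed by 0.057 (exact permutation test, two-sided, p = 0.800). BAX to BCL2L1 differed by -0.063 (-1.43 ± 0.0943 in EV and -1.49 ± 0.0672 in KRT19, exact permutation p = 0.314), and BAK1 to MCL1 by 0.068 (-3.20 ± 0.153 and -3.13 ± 0.126, exact permutation p = 0.514). PMAIP1 to MCL1 was at -3.67, -3.775, -3.84 and -3.86 in EV and at -3.72, -3.83, -3.57 and -3.64 in KRT19 libraries. KRT19 replicates 3 and 4 were above all EV libraries and the others within their range, a difference of 0.100 (exact permutation p = 0.229). Adjusted over the 4 ratios, the lowest p was 0.629, and 4 libraries against 4 cannot give an unadjusted p under 0.0286. Without EV replicate 1 the BAX to BCL2 difference turned to -0.089, and without KRT19 replicate 4 to -0.034. With single libraries left out, BAX to BCL2L1 ranged from -0.098 (without EV replicate 1) to -0.031 (without EV replicate 2 or KRT19 replicate 2), BAK1 to MCL1 from 0.016 (without EV replicate 1) to 0.12 (without EV replicate 3 or KRT19 replicate 3), and PMAIP1 to MCL1 from 0.060 (without KRT19 replicate 3) to 0.15 (without KRT19 replicate 2).

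**Figure D3:**
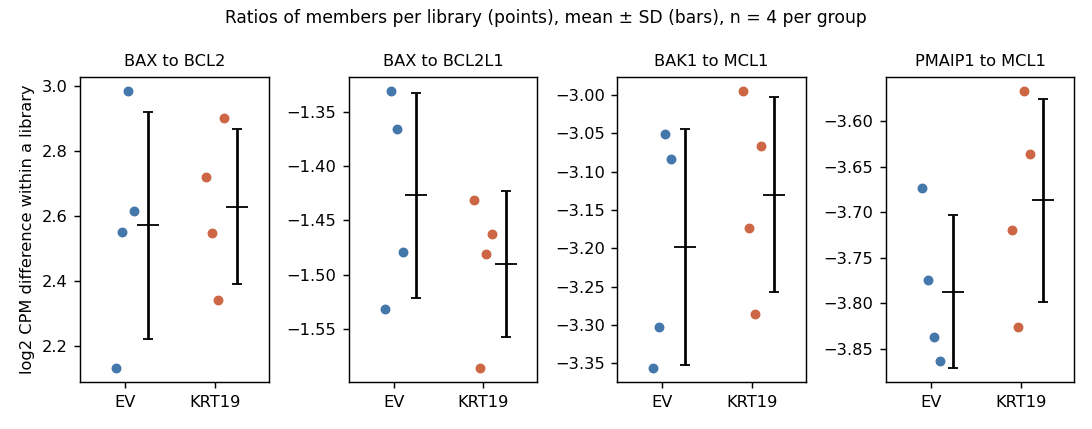
Log2 CPM of one member minus that of another in each library (vertical axis, a separate scale in each panel), with blue points for EV, red points for KRT19 and black bars for the mean ± SD (n = 4). The points of both groups overlap in all 4 panels, with differences of the means from -0.063 to 0.100.

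Some members share sequence with other genes, and the setting for strand was not given in the sources used here. ABALON, a noncoding RNA antisense to BCL2L1, overlaps 43.0% of the BCL2L1 exon bases and had 59 to 88 counts, against 2175 to 2753 for BCL2L1. GPR137, which lies antisense to BAD and overlaps 23.7% of the BAD exon bases, had 788 to 991 counts, above the 351 to 448 of BAD. MIR4435-2HG is antisense to BCL2L11, overlaps 10.9% of the BCL2L11 exon bases and had 500 to 592 counts, against 93 to 146. BAK1P1, a pseudogene, holds 7.45% of the 75-base words of BAK1 and had 7 to 16 counts. Reads from the shared exons could have been lost or assigned to either gene, so the levels of BAD, BCL2L11, BCL2L1 and BAK1 are uncertain to an extent that was not measured. The G and C content of the member transcripts ranged from 43.6% for PMAIP1 to 65.2% for BAD. After removal of GC and length trends per library, 0 of the 10 members passed the adjusted or the unadjusted threshold, where 8.17% of all tested genes passed the unadjusted one. Splice forms with opposed roles, such as long and short BCL-x or MCL1, are summed in gene counts and could not be separated.

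The rest of the apoptosis machinery was compared in the same fit. Of 11 other BCL2 family genes, 7 were tested and 0 passed the adjusted or the unadjusted threshold, with 2 log2 fold changes above 0, 5 below and a median of -0.039. BCL2L12 (20.5 ± 0.620 RPKM in EV and 20.3 ± 1.34 in KRT19) and BOK, an effector-like member (17.8 ± 1.08 and 17.3 ± 0.714), were the most abundant of these. BCL2A1, BCL2L10, BCL2L14 and BCL2L15 had at most 4 counts in any library and were not tested. At these depths 3 counts, the limit that a count of 0 allows, are 0.175 to 0.213 CPM, a limit that covers counting error only.

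Downstream of the mitochondria, 11 of 11 genes of the apoptosome and the caspases were tested and 0 passed either threshold (median log2 fold change 0.032). CYCS, which encodes cytochrome c, was at 45.5 ± 2.80 RPKM in EV and 46.3 ± 5.56 in KRT19, and DFFA, the inhibitor of the caspase-activated DNase, at 23.0 ± 0.687 and 23.55 ± 0.604. Of 8 inhibitors of apoptosis and their antagonists, 7 were tested and 0 passed (median 0.050). BIRC5 (survivin) had a log2 fold change of 0.072 ± 0.052 and HTRA2, a protease released from mitochondria, of -0.10 ± 0.074 (SE, edgeR, adjusted p = 0.911 for both).

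All 10 death receptor genes were tested and 0 passed the adjusted threshold, with a median of -0.048. TRADD, an adaptor of the TNF receptor, was the 1 gene of 43 tested in the 5 lists (2.33%) at an unadjusted p under 0.05, below the 5.41% of all tested genes. It was at 8.47, 9.12, 9.92 and 9.09 RPKM in EV and at 8.59, 7.83, 8.63 and 7.13 RPKM in KRT19 libraries, with a log2 fold change of -0.18 ± 0.080 (SE, unadjusted p = 0.0345, adjusted p = 0.906). KRT19 replicates 2 and 4 were below every EV library and the others were above EV replicate 1. Of the 8 mitochondrial membrane genes 0 passed either threshold (median 0.0045). VDAC1, a channel of the outer membrane, was at 124, 123.5, 127 and 124 RPKM in EV and at 120.5, 123, 109.9 and 119 RPKM in KRT19 libraries. It was lower in every KRT19 library than in any EV library, with a log2 fold change of -0.075 ± 0.046 (SE, edgeR, adjusted p = 0.906). It was the 1 gene of these 43 without overlap, where 3.44% of all tested genes had none. VDAC2, known to hold BAK1 at that membrane, had a log2 fold change of -0.019 ± 0.050 (adjusted p = 0.973).

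**Figure D4:**
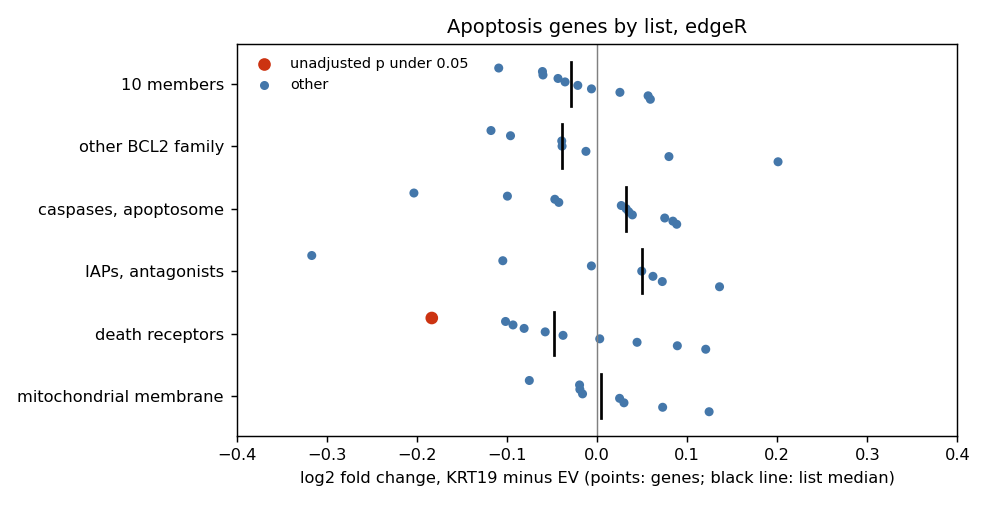
Log2 fold change (KRT19 minus EV) of each tested apoptosis gene by list, with black lines for the list medians and red for the 1 gene at an unadjusted p under 0.05 (TRADD). The 6 medians lie between -0.048 and 0.050, and no gene passed the adjusted threshold.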

How the data were processed

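Raw read counts per gene and library, not normalized, were deposited in a single table with gene lengths, which equal the exon unions of GENCODE 29 for all 58735 genes. The submitters' processing notes name hg38, Bowtie 0.12.2, featureCounts 1.5.0-p3 and DESeq2, without roles. Groups and replicate numbers came from the sample titles. Differences between groups were fitted with edgeR 4.0.16 under R 4.3.3 (filterByExpr, TMM, glmQLFit and glmQLFTest), with limma 3.58.1 and DESeq2 1.42.0 as alternatives, and p-values were adjusted over all genes tested at a threshold of 0.05. SE was derived from the F statistic. Log2 CPM used a prior count of 2. The fits were tested on simulated data. Replicate pairs differed by more than counting noise (chi-square per degree of freedom 2.79 to 13.6). All members were named. In each of the other apoptosis lists, the rule named up to 3 genes of lowest unadjusted p under 0.05, and where there was none the 2 with the highest mean RPKM. DIABLO has 2 identifiers, of which ENSG00000184047 was used. Members and gene lists were both chosen with earlier results of these data known. Promoter motifs and the transcript length alternative were chosen after seeing the data.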

Additional observations from a re-analysis of the deposited data

Results flagged for a closer look

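Among 46 sets of 4 libraries (members, ratios and other named genes), 4 held a library beyond Dixon's 95% critical value for its distance from the rest, where chance gives about 2.3.

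Among the KRT19 libraries, BID was highest in replicate 1 (5.17 log2 CPM), while the other KRT19 libraries lay between 4.99 and 5.01. Among the EV libraries, DFFA was highest in replicate 1 (7.31 log2 CPM), while the other EV libraries lay between 7.22 and 7.24. KRT19 replicate 3 stood apart within its group for BIRC5, with 7.48 log2 CPM where the other KRT19 libraries had 7.31 to 7.33, and for HTRA2, with 4.98 log2 CPM where those had 5.20 to 5.21. The causes were not tested.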

How the results depend on the processing

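In all 17 alternative fits, 0 members passed the adjusted threshold and 0 had an unadjusted p under 0.05, where 3.085% to 9.14% of all tested genes did. The lowest unadjusted p among them was 0.0627, for BCL2L1 after correction for GC and length. Leaving out single libraries gave 0 to 1 members without overlap (BID, without KRT19 replicate 1), where 5.54% to 7.84% of all tested genes had none.

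The direction turned for 5 members and 1 ratio. For BAX, limma-voom gave 0.0042, the correction for GC and length 0.0097, and that correction combined with the replicate block 0.011. For BBC3 the same fits gave 0.030, 0.0061 and 0.0045. Leaving out single libraries gave -0.15 to 0.036 for BCL2, -0.058 to 0.035 for BAX, -0.015 to 0.072 for BAK1, -0.11 to 0.054 for BBC3, -0.085 to 0.0011 for BAD and -0.089 to 0.195 for the BAX to BCL2 ratio. BCL2 was at -0.16 with limma-voom. BCL2L1, MCL1, BCL2L11, PMAIP1 and BID kept their direction in all 17, but not their size. MCL1 ranged from -0.073 (without EV replicate 3) to -0.019 (without EV replicate 1), BCL2L1 from 0.032 (without KRT19 replicate 1) to 0.087 (without KRT19 replicate 3), BCL2L11 from -0.16 (without KRT19 replicate 1) to -0.049 (without KRT19 replicate 2), PMAIP1 from 0.010 (without KRT19 replicate 3) to 0.12 (without EV replicate 1) and BID from -0.11 (without KRT19 replicate 1) to -0.025 (without EV replicate 3). The cause was not tested.

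Of all genes, 1 passed the adjusted threshold. DESeq2 called 5, limma-voom 8, the looser filter on low counts 71, the correction for GC and length 5, and the same correction together with the replicate block 9. Leaving out single libraries gave 1 to 5 (3 without EV replicate 1, 5 without KRT19 replicate 3). The unadjusted threshold was passed by 791 genes (5.41% of those tested), against 1337 by limma-voom (9.14%), 1559 of the 30250 tested under the looser filter (5.15%), 1195 after correction for GC and length (8.17%) and 451 under the replicate block (3.085%). Leaving out single libraries gave 622 to 1229 (the highest without KRT19 replicate 1). Correlations of the deviations of same-numbered libraries ranged from -0.159 to 0.0567, so the numbers were not taken as pairs. Under the replicate block 0 members were called, and exact sign-flip p-values of the ratios ranged from 0.5 to 1.00, where 0.125 is the smallest possible.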
